A study of Homo sapiens with 4 samples.

Results

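The cornified envelope is the protein shell that replaces the plasma membrane of a squamous cell at the end of its differentiation. Its precursors are laid down under the membrane and joined by transglutaminases, enzymes that form bonds between glutamine and lysine side chains. Periplakin and envoplakin form an early scaffold, involucrin and sciellin are early substrates, and the small proline-rich (SPRR) proteins act as cross-bridges. In the esophagus, whose lining does not normally form the fully keratinized surface of the skin, involucrin, SPRR and plakin proteins mark the suprabasal layers.

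The set held 10 genes of 56657 rows in the deposited table, picked by symbol: the precursors IVL, SCEL, PPL and EVPL, the cross-bridging SPRR1A, SPRR1B and SPRR3, the transglutaminases TGM1 and TGM2, and DMKN, which codes for the secreted protein dermokine. Each symbol matched 1 row, and all 10 were among the 16817 genes with enough counts to test. RNA came from TE5 cells, an established line labelled as esophageal squamous cell carcinoma. There were 2 libraries of shControl cells (control hairpin RNA, labelled WT) and 2 of shNUP153 cells (labelled as a knockdown of NUP153, which codes for a nuclear basket protein of the nuclear pore). Both groups had been infected with lentivirus, selected with puromycin and collected at day 7. The names of the shNUP153 libraries carry g1 and g2, which may or may not mark different hairpins, and nothing in the labels says that replicates were separate cultures, so the p-values reflect library-to-library spread that may be technical.

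Library totals ranged from 22606593 to 27396268 counts. NUP153 itself measured 149 and 142 CPM (reads of a gene relative to the TMM-scaled library total) in shControl and 67.9 and 81.9 CPM in shNUP153, 1.94-fold lower (edgeR adjusted p = 1.051e-14). Of the squamous markers, TP63 (248 CPM in shControl), ITGB4 (881 CPM), PKP1 (250 CPM) and DSG3 (123 CPM) were well measured, whereas KRT14 had 6 to 13 counts per library. Of the 8 squamous markers, 7 could be tested, and 4 fell (KRT5, SOX2, PKP1 and KRT6A) and 0 rose. These were 57.1% and 0%, against 17.4% lower and 15% higher among all tested genes. Simple epithelial markers were also abundant, summing to 2896 to 2929 CPM in shControl and 2989 to 3023 CPM in shNUP153. Of 5 tested, 2 rose (KRT18 and KRT19) and 0 fell, or 40% and 0%, against the same 15% and 17.4%. Of 8 blood cell markers 6 were too low to test, with at most 3 counts in any library, and their sum was 5.68 to 5.74 CPM in shControl and 7.06 to 7.38 CPM in shNUP153, mostly ITGAM. Fibroblast markers summed to 13.7 to 14.9 CPM and 17.4 to 17.6 CPM, nearly all COL1A1, with DCN and LUM at 0. Endothelial markers summed to 11.7 to 12.8 CPM in shControl and 24.5 to 25.6 CPM in shNUP153, nearly all of it CDH5 (10.5 and 22.5 CPM), while PECAM1 had 0 to 3 counts. The part of these markers in the results below was not tested.

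In shNUP153 cells, 6 of the 10 genes rose, 1 fell and 3 did not pass the test. SPRR3 rose 3.78-fold, IVL 2.19-fold, SCEL 1.94-fold, SPRR1B 1.85-fold, PPL 1.42-fold and EVPL 1.15-fold. SPRR3 passed the count filter only through the shNUP153 libraries, where it was high. DMKN fell 1.15-fold. SPRR1A, TGM1 and TGM2 did not pass (edgeR adjusted p = 0.0508, 0.0784 and 0.362). Among all tested genes 32.4% were called at an edgeR adjusted p under 0.05, 15% higher and 17.4% lower (of the calls, 46.3% were upward; total-count scaling made this 62.8% and upper-quartile scaling 57.6%). The median log2 fold change was 0.67 over the 10 genes and 0.01 over all tested genes. The groups' libraries did not overlap for 9 of the 10 genes, 7 higher and 2 lower in shNUP153, against 64.4% of tested genes, 32.2% in each direction. Summed over the 10 genes, the level was 359 and 365 CPM in shControl and 453 and 438 CPM in shNUP153. With 2 libraries a group, no exact permutation test of such a sum can give a two-sided p below 0.333.

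**Figure D1:**
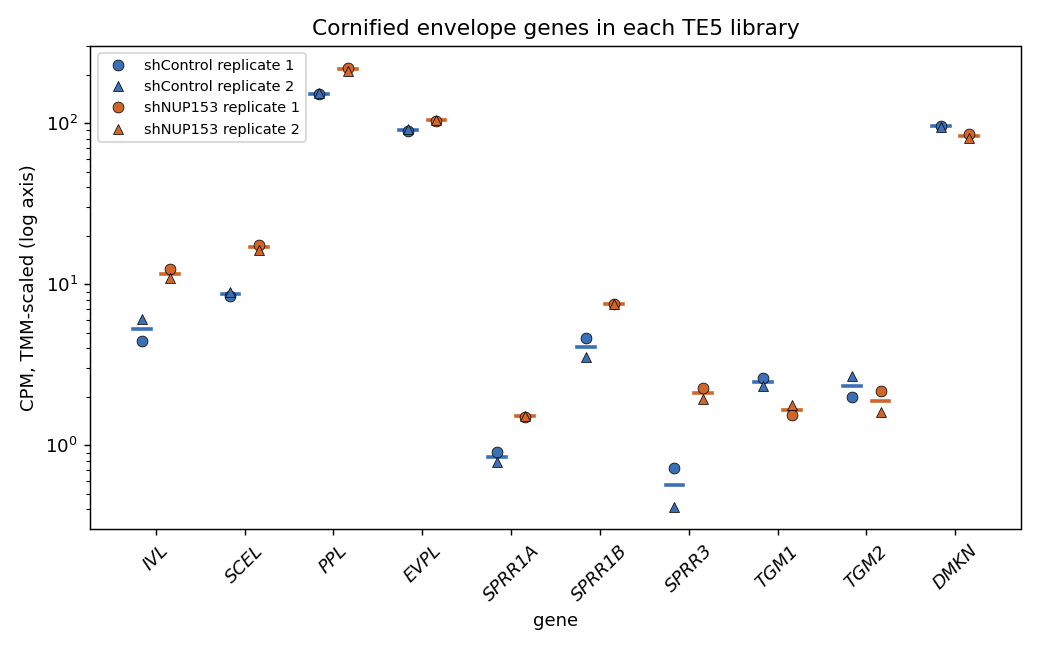
CPM of each gene (log axis) in the 4 libraries. Circles and triangles are replicates 1 and 2, blue is shControl, orange is shNUP153, and short bars are group means; the shNUP153 points lie above the shControl points for 7 genes, below them for TGM1 and DMKN, and among them for TGM2.

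The promoters of IVL, SCEL and the 3 SPRR genes are shown because these had the highest log2 fold changes of the set and because IVL and the SPRR genes lie together in the epidermal differentiation complex, with starts spread over 122.7 kb of chromosome 1. RefSeq windows (build GRCh38.p14) were matched by symbol for 6 of the 10 genes, IVL, SCEL, SPRR1A, SPRR1B, SPRR3 and DMKN. Each sequence below is the 250 bases before the annotated start, 5′ to 3′ on the gene's strand, with matches to TGANTCA, the site bound by AP-1 (FOS and JUN family dimers), in capitals.
IVL: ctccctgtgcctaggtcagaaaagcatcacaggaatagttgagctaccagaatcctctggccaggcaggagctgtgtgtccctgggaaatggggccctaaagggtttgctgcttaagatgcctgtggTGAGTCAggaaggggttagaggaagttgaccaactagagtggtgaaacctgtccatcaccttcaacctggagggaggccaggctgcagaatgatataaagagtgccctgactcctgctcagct
SCEL: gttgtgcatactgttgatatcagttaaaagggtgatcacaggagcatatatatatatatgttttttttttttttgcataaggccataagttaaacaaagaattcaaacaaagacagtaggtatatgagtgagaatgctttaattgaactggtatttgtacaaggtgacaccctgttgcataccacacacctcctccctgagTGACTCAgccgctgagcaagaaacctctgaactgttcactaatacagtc
SPRR1A: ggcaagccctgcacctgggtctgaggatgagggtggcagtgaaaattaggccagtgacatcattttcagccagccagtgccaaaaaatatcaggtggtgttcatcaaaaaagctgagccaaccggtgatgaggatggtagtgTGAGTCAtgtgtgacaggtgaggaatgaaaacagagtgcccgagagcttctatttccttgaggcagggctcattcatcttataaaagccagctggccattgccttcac
SPRR1B: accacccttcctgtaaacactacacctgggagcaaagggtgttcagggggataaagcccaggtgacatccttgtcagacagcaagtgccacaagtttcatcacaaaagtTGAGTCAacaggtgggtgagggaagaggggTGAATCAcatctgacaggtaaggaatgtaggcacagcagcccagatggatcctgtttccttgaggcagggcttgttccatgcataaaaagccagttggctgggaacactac
SPRR3: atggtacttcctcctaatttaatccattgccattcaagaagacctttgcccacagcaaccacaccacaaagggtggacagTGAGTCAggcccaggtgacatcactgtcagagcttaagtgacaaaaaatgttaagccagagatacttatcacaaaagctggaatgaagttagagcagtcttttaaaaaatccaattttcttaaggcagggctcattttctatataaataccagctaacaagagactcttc
The windows are chr1:152908296-152908545 for IVL, chr13:77535456-77535705 for SCEL, chr1:152983831-152984080 for SPRR1A, chr1:153030953-153031202 for SPRR1B and chr1:153001499-153001748 for SPRR3, all on the plus strand.

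The AP-1 motif TGANTCA, which reads the same on both strands, began 123 bases before the start in IVL, 49 in SCEL, 108 in SPRR1A, 141 and 111 in SPRR1B and 170 in SPRR3. DMKN has 3 annotated starts, and 2 of their windows held it. In all, 7 of the 8 windows held the motif, against 6.57% of all 35116 RefSeq windows of this length. Among genes with a window, at least 1 window held it for 9.53% of those called higher, 5.65% of those called lower and 6.17% of those not called. The match is a description of the letters and does not show that a factor binds there. Any part of the motif in the changes, in either direction (DMKN fell), was not tested. TATAAA, the letters of a TATA box, searched on both strands, was found in IVL, SPRR1A and SPRR3, beginning 29 or 30 bases before the start, and in 10.7% of all windows. GGGCGG, a GC box, searched on both strands, was found in 1 of the 8 windows, a DMKN start, against 42.6% of all windows. None of these matches overlapped another.

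**Figure D2:**
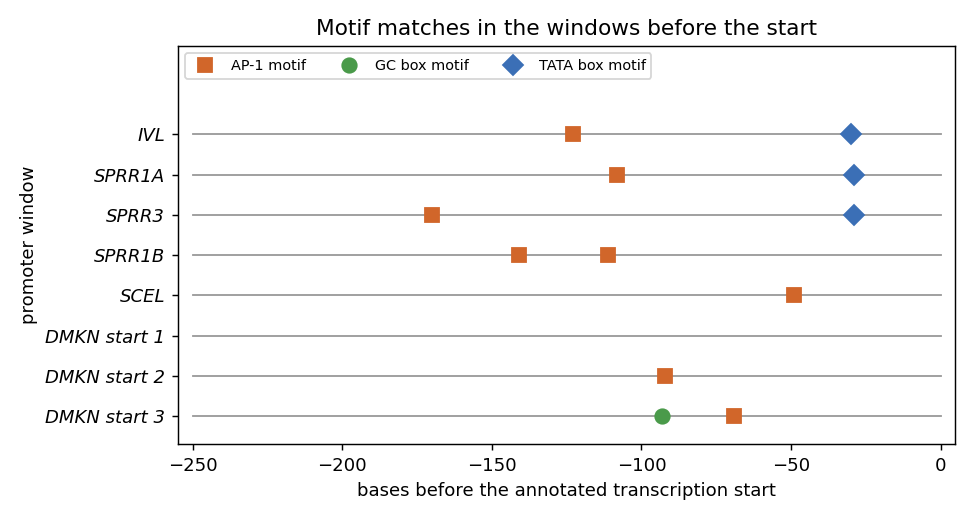
Motif matches in the 8 promoter windows of 6 genes; the x axis is the distance in bases before the annotated transcription start, and each line is 1 window. AP-1 matches (squares) lie 49 to 170 bases before the start in 7 windows, and TATA box matches (diamonds) 29 or 30 bases before it in 3.

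Involucrin and sciellin are substrates that transglutaminases join early in envelope assembly. IVL (ENSG00000163207; GENCODE 29 on GRCh38, chr1:152908545-152911886) measured 4.46 and 6.08 CPM in shControl, from 99 and 162 counts, and 12.4 and 10.9 CPM in shNUP153, from 322 and 258 counts. Both shNUP153 libraries lay above both shControl libraries, and the shControl replicates were the further apart on a ratio scale. The means were 5.27 ± 1.14 and 11.6 ± 1.09 CPM (SD, n = 2), with log2 fold change 1.13 ± 0.14 (SE; edgeR adjusted p = 5.581e-08). SCEL (ENSG00000136155; chr13:77535674-77645263) measured 8.38 and 9.002 CPM in shControl and 17.5 and 16.4 CPM in shNUP153. Its groups did not overlap and its replicates were close, 8.69 ± 0.436 against 16.9 ± 0.814 CPM (SD, n = 2), with log2 fold change 0.96 ± 0.11 (SE; edgeR adjusted p = 8.844e-09). SCEL overlaps the antisense gene SCEL-AS1 by 35 bp of exon, and that gene had 1 count in all 4 libraries together. Leaving out any of the 4 libraries left the log2 fold change of IVL between 0.94 and 1.38 and that of SCEL between 0.91 and 1.01, both still past the test.

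Periplakin and envoplakin belong to the plakin family, bind each other and link the envelope to keratin filaments and desmosomes. PPL (ENSG00000118898; chr16:4882507-4960741) measured 150.7 and 153.3 CPM in shControl and 220.1 and 211 CPM in shNUP153. Its replicates lay close to each other, 152 ± 1.84 against 216 ± 6.34 CPM (SD, n = 2), and it had the smallest adjusted p of the 10 genes (log2 fold change 0.50, SE 0.05, edgeR adjusted p = 1.989e-10). EVPL (ENSG00000167880; chr17:76004502-76027452) measured 89.4 and 91.9 CPM in shControl and 103 and 105 CPM in shNUP153. The groups did not overlap, but the rise was small, 90.6 ± 1.74 to 104 ± 1.07 CPM (SD, n = 2; log2 fold change 0.20, SE 0.05, edgeR adjusted p = 0.004307). Its call was lost without shNUP153 replicate 1 (edgeR adjusted p = 0.067) and without shNUP153 replicate 2 (0.0941). The number of PPL reads per EVPL read was 1.69 and 1.67 in shControl and 2.13 and 2.02 in shNUP153, so this ratio did not overlap between groups; 2 libraries a group allow no exact permutation p below 0.333 for it.

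SPRR proteins are short, rich in proline, glutamine and lysine, and cross-linked at both ends. SPRR1B (ENSG00000169469; chr1:153031202-153032900) measured 4.64 and 3.53 CPM in shControl and 7.48 and 7.54 CPM in shNUP153. The shNUP153 replicates were nearly equal and both above the shControl replicates, 4.08 ± 0.790 against 7.51 ± 0.0455 CPM (SD, n = 2), with log2 fold change 0.89 ± 0.16 (SE; edgeR adjusted p = 3.274e-05). SPRR3 (ENSG00000163209; chr1:153001747-153003856), an SPRR gene known for its expression in esophageal lining, was counted 16 and 11 times in shControl libraries and 59 and 46 times in shNUP153 libraries. These correspond to 0.721 and 0.413 CPM against 2.27 and 1.94 CPM. The groups did not overlap although the counts were low, with log2 fold change 1.92 ± 0.34 (SE; edgeR adjusted p = 3.403e-05). Leaving out 1 library gave 1.54 to 2.34. The shControl counts of SPRR3 alone would not have passed the count filter, so it could be tested because of its shNUP153 counts. SPRR1A (ENSG00000169474; chr1:152985231-152985500) was counted 20 and 21 times in the controls and 39 and 36 times after knockdown, or 0.902 and 0.788 CPM against 1.504 and 1.517 CPM. Its groups did not overlap and its log2 fold change was 0.84 (SE 0.33), close to that of SPRR1B, but with these counts it missed the threshold (edgeR adjusted p = 0.05082). It passed with total-count scaling (edgeR adjusted p = 0.0328), upper-quartile scaling (0.0388), no filter on low counts (0.0486) and limma-trend (0.0482).

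Reads of SPRR1A and SPRR1B could be confused by the counting. Of the 240 distinct 31-base words in the GENCODE transcript of SPRR1A, which covers the coding sequence alone, 63 also occur in SPRR1B (26.3%), and these are 10.7% of the words of SPRR1B. SPRR3, IVL, SCEL, PPL and TGM1 shared 0 such words with any other gene. EVPL shared 4.24%, mostly with EVPLL, which had 1 to 3 counts per library. Within the SPRR reads of each library, SPRR3 made up 11.5% and 8.73% in shControl and 20.2% and 17.6% in shNUP153. SPRR1B made up 74.1% and 74.6% and then 66.4% and 68.6%, so it remained the largest of the 3 by reads in every library. SPRR1A stayed between 13.4% and 16.7% of SPRR reads in the 4 libraries. The summed SPRR level was 5.50 ± 1.09 CPM in shControl and 11.1 ± 0.183 CPM in shNUP153 (SD, n = 2).

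**Figure D3:**
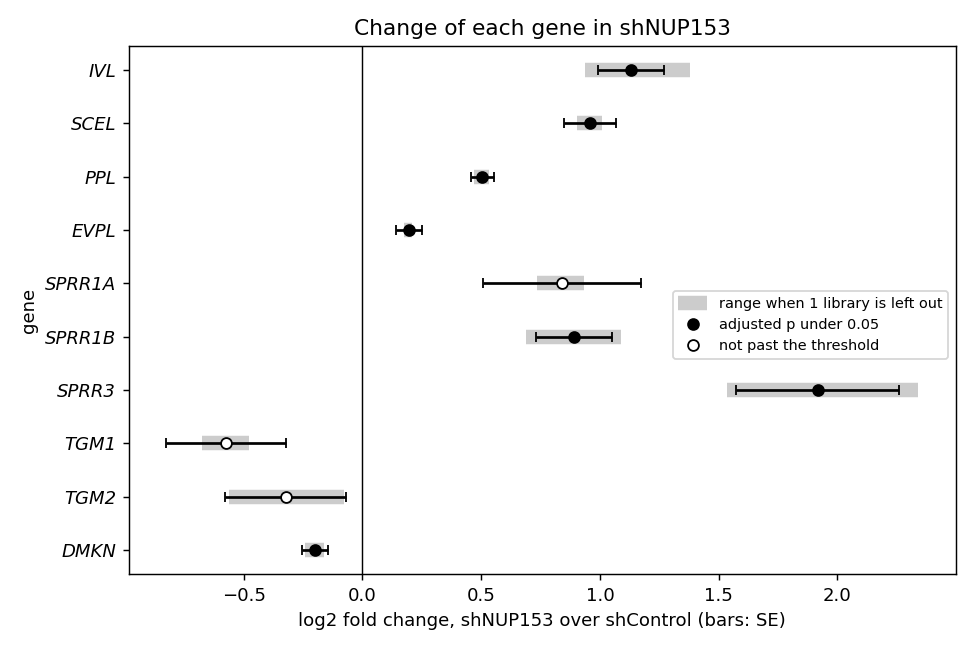
Log2 fold change of each gene in shNUP153 over shControl. Points are edgeR estimates with SE, filled where the adjusted p is under 0.05, and grey bands give the range when 1 library is left out; no band crosses 0, the widest being that of SPRR3 (1.54 to 2.34), and the TGM2 band comes closest to 0 (−0.56 to −0.08).

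Neither crosslinking enzyme passed the test, and both estimates were below 0. TGM1 codes for the membrane-anchored keratinocyte transglutaminase. TGM1 (ENSG00000092295; chr14:24249114-24264432) was counted 58 and 62 times in the controls and 40 and 42 times after knockdown, or 2.61 and 2.33 CPM against 1.54 and 1.77 CPM. Both shNUP153 libraries were below both shControl libraries, with a log2 fold change of −0.57 (SE 0.25) that missed the threshold (edgeR adjusted p = 0.07844). TGM2, tissue transglutaminase, is a widely expressed relative with roles outside the envelope. TGM2 (ENSG00000198959; chr20:38127387-38166578) measured 1.98 and 2.70 CPM in shControl and 2.16 and 1.60 CPM in shNUP153. The groups overlapped (log2 fold change −0.32, SE 0.25, edgeR adjusted p = 0.3616), and the estimate ran from −0.56 to −0.08 as libraries were left out. Summed, the 2 enzymes gave 4.598 and 5.03 CPM in shControl and 3.70 and 3.37 CPM in shNUP153. At 38 to 72 counts per library, counting error alone is 15.8% for the lowest count of TGM1 and 16.2% for that of TGM2, and neither estimate shows that these genes were unchanged.

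DMKN, dermokine, is secreted by suprabasal keratinocytes and is made in several isoforms. DMKN (ENSG00000161249; chr19:35497220-35513658) measured 95.4 and 95.1 CPM in shControl and 85.2 and 80.7 CPM in shNUP153. The shNUP153 libraries lay below the shControl libraries by more than the spread within either group, 95.3 ± 0.248 against 83.0 ± 3.18 CPM (SD, n = 2; log2 fold change −0.20, SE 0.06, edgeR adjusted p = 0.005134). The call was lost without shNUP153 replicate 2 (edgeR adjusted p = 0.1555) and with total-count scaling (0.0611). The annotation gives it 22 transcripts, which gene-level counts do not separate. PPL made up 41.9% and 42.0% of the reads of the 10 genes in shControl and 48.6% and 48.2% in shNUP153, while DMKN went from 26.6% and 26.0% to 18.8% and 18.4%.

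Per kilobase of annotated exon (GENCODE 29), the order of levels in shControl was DMKN (33.2 CPM per kilobase), PPL (24.4), EVPL (13.6), SPRR1B (6.59), SCEL (2.69), IVL (2.45), TGM1 (0.890), SPRR3 (0.575) and TGM2 (0.462). SPRR1A is left out of this order because its annotated length is the coding length. SCEL and IVL were not separated by their replicates (2.60 and 2.79 against 2.07 and 2.82 CPM per kilobase), nor were SPRR3 and TGM2 (0.732 and 0.418 against 0.391 and 0.533). In shNUP153 PPL stood at 34.6 ± 1.02 and DMKN at 28.97 ± 1.11 CPM per kilobase (SD, n = 2), with the order of those 2 exchanged. With the length of the longest transcript DMKN would stand at 43.1, above PPL, so that exchange depends on the length used. SPRR3 (2.14 CPM per kilobase) lay above TGM1 (0.596) in shNUP153 and below it in shControl.

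Placed among all tested genes by log2 fold change, SPRR3 lay at percentile 99.6, IVL at 97.7, SCEL at 96.7, SPRR1B at 96.2, SPRR1A at 95.7, PPL at 90, EVPL at 73.4, DMKN at 23.4, TGM2 at 13.6 and TGM1 at 4.85. Genes with few counts spread more widely, so a percentile of SPRR3 or TGM1 is less precise than one of PPL. Uncorrected for library size, the authors' deposited table gives log2 ratios of 1.15 for IVL, 0.98 for SCEL, 0.53 for PPL, 1.96 for SPRR3, −0.55 for TGM1 and −0.17 for DMKN, with the same signs.

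**Figure D4:**
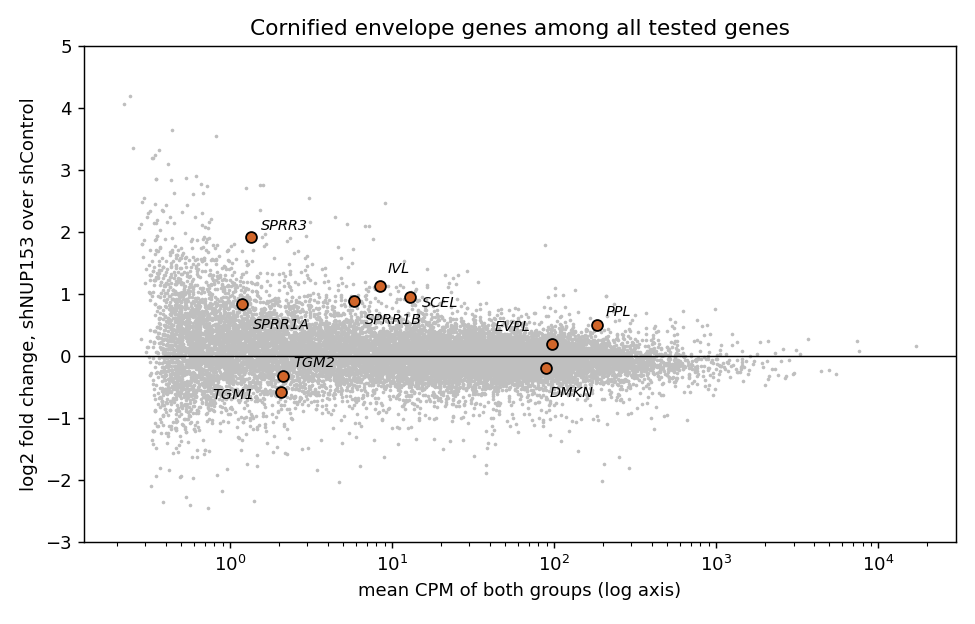
Log2 fold change (y axis) against the mean CPM of both groups (log axis) for all 16817 tested genes in grey, with the 10 envelope genes in orange. Low-count genes spread widely, and PPL, furthest right of the 10, is at 0.50, percentile 90 of all tested genes.

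Other proteins of the envelope were measured in part. Of 46 further envelope genes, 12 could be tested, and 7 rose and 1 fell (median log2 fold change 0.44). These were 58.3% and 8.33%, against 15% and 17.4% of all tested genes. PI3, the protease inhibitor elafin, which transglutaminases link to the envelope, went from 6.49 and 5.74 CPM to 17.1 and 18.1 CPM, a 2.89-fold rise (edgeR adjusted p = 7.314e-13). The protease inhibitor gene CSTA (cystatin A) rose 1.30-fold and ANXA1, annexin A1, 1.28-fold. SPRR2D was counted 4 and 5 times in the controls and 29 times in each shNUP153 library (6.20-fold, edgeR adjusted p = 5.56e-05). SPRR2D and SPRR2E passed the count filter only through the shNUP153 libraries, where they were high. The 7 that rose thus include genes that could be tested because they were high there. Genes as low in shControl that did not rise could not enter the 12. SPRR2E (6.82-fold) and SPRR2A (2.24-fold), chosen after their values were seen, also rose, but 29.9% to 51.3% of the 31-base words of these 3 SPRR2 genes occur in other genes, so their values are uncertain. The log2 fold change of SPRR2E was 2.77, and it was 3.85 without shControl replicate 1 and 2.06 without shControl replicate 2. S100A10 was the gene that fell (1.11-fold). Its call was lost with total-count scaling (edgeR adjusted p = 0.12), with upper-quartile scaling (0.0521) and without shNUP153 replicate 2 (0.129). Of the 34 genes too low to test, 17 had 0 counts in every library, loricrin among them. With 3 counts taken as an approximate upper limit for a count of 0, this is 0.113 to 0.135 CPM per library. Filaggrin had 0 to 8 counts.

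Of 8 further members of the transglutaminase family, TGM4, known from the prostate, alone had enough counts to test, and only through the shNUP153 libraries. It was counted 8 and 14 times in the controls and 36 and 20 times after knockdown (2.48-fold, edgeR adjusted p = 0.01487), and it did not pass if shControl replicate 1 (edgeR adjusted p = 0.104) or shNUP153 replicate 1 (0.344) was left out. TGM3 and TGM5, the other epidermal enzymes, had 0 to 4 counts. Among suprabasal keratins, 3 of 5 tested genes rose and 0 fell (60% and 0%, against 15% and 17.4% of all tested genes). Those that rose were KRT80 (1.51-fold, 413 ± 1.69 to 622 ± 66.4 CPM, SD, n = 2), KRT10 (1.27-fold) and KRT13 (1.83-fold), a keratin of the esophageal suprabasal layers. KRT4, the partner of KRT13, was 1.59-fold higher and did not pass (edgeR adjusted p = 0.065), though it did with total-count scaling (0.0388) and upper-quartile scaling (0.0475). KRT1 was at 0 counts. With DESeq2, KRT10 did not pass (adjusted p = 0.076).

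Of 23 genes for corneodesmosomes, desquamation proteases and their inhibitors, 13 could be tested, and 3 rose and 3 fell (23.1% each, against 15% and 17.4% of all tested genes), with a median log2 fold change of −0.03 (0.04 with total-count scaling, 0.02 with upper-quartile scaling, and −0.10 to 0.17 over all alternatives). SERPINB13, a gene of the serpin family, fell 2.04-fold, from 19.4 and 19.6 CPM to 8.56 and 10.6 CPM. The kallikrein genes KLK10 and KLK8 fell 1.44-fold and 2.32-fold. The protease inhibitor gene SPINT1 rose 1.14-fold. PRSS8 (1.19-fold) and KLK6 (1.28-fold), chosen after their values were seen, rose as well. Without shNUP153 replicate 1 the calls for KLK8 (edgeR adjusted p = 0.056), SPINT1 (0.103), PRSS8 (0.118) and KLK6 (0.185) were lost. PRSS8 and KLK6 also missed the threshold if shControl replicate 1 (0.0994 and 0.148) or shNUP153 replicate 2 (0.0911 and 0.0573) was left out, and with DESeq2 (0.0576 and 0.117).

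Of 16 genes for barrier lipids, 11 could be tested, and 3 rose and 2 fell (median log2 fold change 0.21). These were 27.3% and 18.2%, against 15% and 17.4% of all tested genes. ABCA12, the transporter that loads lipids into lamellar granules, rose 1.42-fold, from 25.4 and 22.9 CPM to 35.4 and 33.2 CPM. SMPD1, acid sphingomyelinase, rose 1.27-fold, and the glucosylceramide synthase gene UGCG 1.18-fold. The fatty acid elongase gene ELOVL1 was among those that fell (1.14-fold). The calls for SMPD1, UGCG and ELOVL1 were each lost without at least 1 of the shNUP153 libraries (edgeR adjusted p = 0.0524 to 0.109), and that for ELOVL1 also with total-count scaling (0.0607).

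Of 30 regulators of squamous terminal differentiation, 28 could be tested, and 15 rose and 2 fell (median log2 fold change 0.33). These were 53.6% and 7.14%, against 15% and 17.4% of all tested genes. The 4 with the smallest p were the AP-1 genes JUN (1.57-fold), FOSL1 (1.30-fold) and FOS (2.69-fold, 1.76 and 2.40 to 5.82 and 5.48 CPM), and the epithelial ETS factor gene ELF3 (1.44-fold). OVOL1, GRHL3 and ZNF750, epidermal differentiation factors chosen after their values were seen, rose 1.42-fold, 1.57-fold and 1.85-fold. EHF (1.27-fold) and HOPX (2.55-fold), also chosen after their values were seen, fell. TP63 (log2 fold change −0.08) and KLF4 (0.05) did not pass.

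The S100A genes lie in the same complex of chromosome 1 as IVL and the SPRR genes. Of 17, 11 could be tested, and 2 rose and 4 fell (18.2% and 36.4%, against 15% and 17.4% of all tested genes). These counts moved with single libraries: 1 rose and 6 fell without shControl replicate 1, 1 rose and 3 fell without shNUP153 replicate 1, and 1 rose and 2 fell without shNUP153 replicate 2. The median log2 fold change was −0.10, and it was −0.18 without shControl replicate 1 and −0.00186 without shControl replicate 2. S100A9, a calprotectin subunit, rose 1.88-fold, from 7.93 and 7.61 CPM to 15.2 and 14.1 CPM. S100A8, the other subunit, had 0 counts in each shControl library and 1 in each shNUP153 library. S100A6 fell 1.22-fold and S100A16 1.18-fold, beside S100A10. S100A14 was 3.27-fold higher, a log2 fold change of 1.71 that was 2.97 without shControl replicate 2. It had 2 and 9 counts in shControl and passed the count filter only through the shNUP153 libraries. S100A1 was 1.77-fold lower. Chosen after their values were seen, both calls were lost without shNUP153 replicate 1 (edgeR adjusted p = 0.155 and 0.182) and without shNUP153 replicate 2 (0.109 and 0.0595). That for S100A14 was also lost without shControl replicate 1 (0.202), and that for S100A1 without shControl replicate 2 (0.141) and with DESeq2 (0.141).

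**Figure D5:**
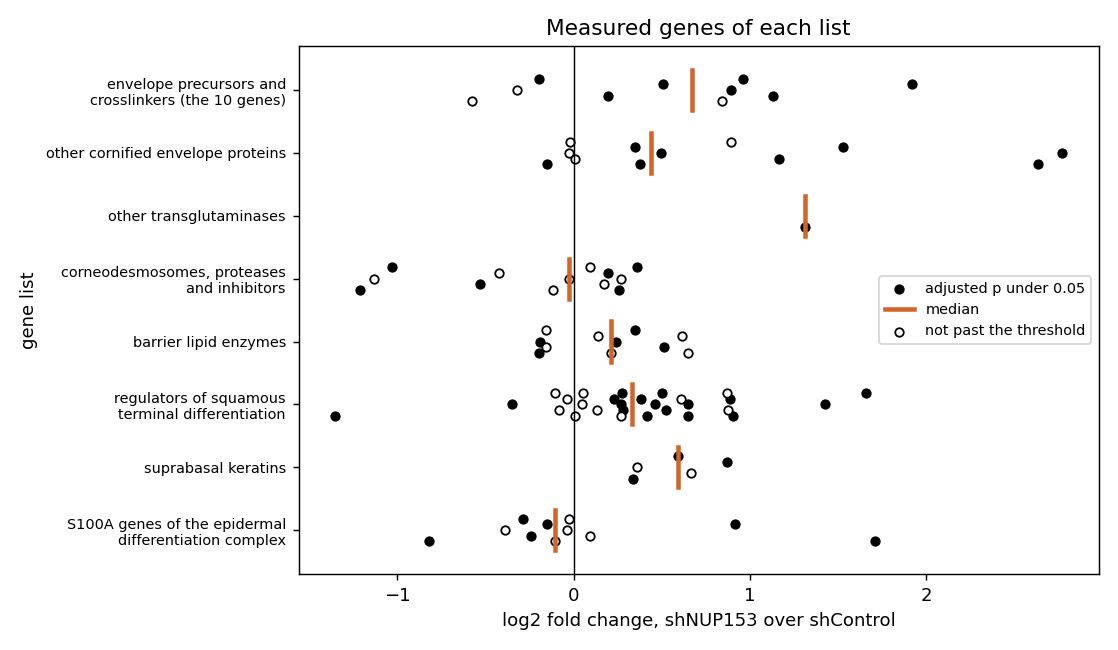
Log2 fold change in shNUP153 over shControl (x axis) for the tested genes of each list (y axis), each point a gene, filled where the edgeR adjusted p is under 0.05, with the list median as an orange bar. The 10 envelope genes have a median of 0.67 and the regulators 0.33.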

How the data were processed

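The deposited table holds raw read counts per gene for 4 RNA-seq libraries, 2 shControl and 2 shNUP153. Its name says FPKM, but the values are whole numbers with a different total in each library. The submitters' processing notes name kallisto, DESeq2, Bowtie2, deepTools and hg19, with no roles. No source used here gives the annotation or the strand setting. The authors' deposited log2 ratio has no library-size correction and entered no test.

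Genes were kept by filterByExpr (minimum count 10, minimum total 15) and tested with edgeR 4.0.16 (R 4.3.3) by the quasi-likelihood test with TMM scaling, two-sided, Benjamini-Hochberg adjusted over 16817 genes, threshold 0.05, after a check on simulated counts. A gene with enough counts in either group alone passed the filter, so shares of tested genes include genes that entered through the group where they were high. Each SE is the log2 fold change over the square root of its F. Alternatives used DESeq2 1.42.0, limma 3.58.1 (limma-trend), other scalings and filters, a replicate block and leaving out each library. Replicates differed by more than sampling noise (chi-square per gene 3.57 and 3.09, where noise gives about 1).

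The 10 genes and the lists were chosen with earlier results of these data known. Named beside the 10 genes and NUP153 were up to 4 genes per list, by smallest p, and all that passed where 5 or fewer did; 1 gene so named is not reported here. TP63, KLF4, the markers and the undetected genes named, and others so described, were chosen after their values were seen. Positions are from GENCODE 29 and promoters from RefSeq, matched by gene, not by the submitters' coordinates.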

Additional observations from a re-analysis of the deposited data

How the results depend on the processing

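IVL, SCEL, PPL, SPRR1B and NUP153 kept their direction and their side of the threshold under all 12 alternatives, TGM1 and TGM2 under the 11 and SPRR3 under the 10 that could test them. Leaving out 1 library gave a log2 fold change of 0.17 to 0.21 for EVPL and −0.24 to −0.16 for DMKN, 0 to 1 of the 10 genes lower, and 1303 to 2327 genes higher and 1769 to 2874 lower over the whole table. With total-count scaling DMKN was −0.13 and 0 of the 10 genes fell. SPRR1A passed at 0.90 with total-count scaling, 0.88 with upper-quartile scaling, 0.83 with no filter on low counts and 0.81 with limma-trend. DESeq2 called 1442 genes higher and 2114 lower and left the adjusted p of SPRR1A and SPRR3 undefined, so 8 of the 10 could be judged. A mean of 5 CPM or more kept 6 of the 10. The causes were not tested.

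Replicate numbers are shared between groups, but same-numbered libraries did not deviate together (correlation −0.00343 across genes). A fit with the replicate block called 2530 genes higher and 2935 lower, and 6 and 1 of the 10 genes, with log2 fold changes as before. The length alternative for levels per kilobase was chosen after seeing the data. For the other genes named from the lists, 394 of the results under the alternatives kept their call, 31 lost it, 2 gained it and 0 reversed. Depth limits SPRR1A, SPRR3, TGM1 and TGM2, with 11 to 72 counts per library.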

Other observations

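Several envelope and barrier genes were too low to test. The following were chosen after their values were seen, and each is given as its counts in shControl replicates 1 and 2 and then shNUP153 replicates 1 and 2. Suprabasin (SBSN), a secreted protein of suprabasal keratinocytes, had 0, 0, 8 and 8 counts, and KRTDAP, a keratinocyte differentiation-associated gene, had 0, 2, 5 and 6. SULT2B1, the cholesterol sulfotransferase of the epidermis, had 3, 1, 9 and 12. LCE3E, a late envelope gene, had 0, 0, 3 and 6, and LCE1C had 1, 2, 8 and 2. Others were no higher in shNUP153: SPRR2F had 5, 10, 2 and 8 counts, SPRR4 had 2, 5, 3 and 4, filaggrin (FLG) had 3, 8, 6 and 0, and TGM3 had 4, 0, 2 and 0. None of these counts supports a fold change at this depth.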
